A study of Mus musculus with 31 samples.

Results

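Transcripts of 9 genes of fatty acid synthesis and its control were followed in whole liver of 31 BxD/TyJ mouse strains. The members were the probes annotated with a single gene that is Scd1, Fasn, Acly, Acaca, Elovl6, Srebf1, Me1, Thrsp or Gpam, which gave 11 probes of the 21765 with a value on every array, and 9 of the 15095 genes named. Acaca had 3 probes, called here Acaca 4082, Acaca 16198 and Acaca 21684 after their identifiers, and each other gene had 1. These recombinant inbred lines come from crosses between C57BL/6J and DBA/2J mice, and each line has become nearly homozygous for one parental allele at a locus. For every strain, liver RNA of 3 replicates was pooled, labelled with Alexa Fluor 647 and hybridised once. A single pool of liver RNA from 9 C57BL/6J individuals, labelled with Alexa Fluor 555, was the reference on all arrays. All mice were male and 8 weeks old, and no genetic or dietary manipulation is named in the labels. With 1 array for each strain, every error and SD below measures the spread between arrays of different strains. Strain differences and the noise of pool and array cannot be told apart in it. Every p-value rests on this spread, and the reference has no spread of its own. Strain and reference RNA never exchanged dyes. In a panel mean, a dye effect of a probe or a trait of the pool cannot be told apart from a strain difference. In whole liver, fewer cells of a type and less RNA per cell cannot be told apart.

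Fatty acid synthesis starts from citrate, which ATP citrate lyase (Acly) splits in the cytosol to give acetyl-CoA. Acetyl-CoA carboxylase alpha (Acaca) turns this into malonyl-CoA, and fatty acid synthase (Fasn) builds palmitate from both, using NADPH that malic enzyme (Me1) helps to supply. Elovl6 lengthens palmitate to stearate, the desaturase Scd1 makes oleate and palmitoleate from saturated acyl-CoA, and the acyltransferase Gpam puts the first acyl chain on glycerol phosphate on the way to triglyceride. Srebf1 encodes the sterol regulatory element binding protein that insulin raises in liver and that drives many of these genes, and Thrsp encodes a small nuclear protein that follows thyroid hormone and carbohydrate feeding. In liver the enzymes are known to rise together on feeding and to fall on fasting.

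Fasn and Acly, whose probes varied in opposite senses across strains (below), both lie on chromosome 11, as do Acaca and Srebf1. Their promoters are shown because both are textbook targets of the Srebf1 product, so that the letters can be set beside the values. Each sequence covers the 250 bases before the start of the gene in RefSeq assembly GRCm38.p6, on the minus strand, at chr11:120824548-120824797 for Fasn and chr11:100528001-100528250 for Acly. Capitals mark CCAAT boxes (CCAAT) and GC boxes (GGGCGG), searched on both strands.
Fasn: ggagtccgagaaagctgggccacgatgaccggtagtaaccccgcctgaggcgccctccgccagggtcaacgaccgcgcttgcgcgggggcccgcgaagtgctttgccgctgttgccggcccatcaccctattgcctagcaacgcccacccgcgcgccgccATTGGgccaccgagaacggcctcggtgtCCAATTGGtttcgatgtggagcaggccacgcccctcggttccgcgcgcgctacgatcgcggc
Acly: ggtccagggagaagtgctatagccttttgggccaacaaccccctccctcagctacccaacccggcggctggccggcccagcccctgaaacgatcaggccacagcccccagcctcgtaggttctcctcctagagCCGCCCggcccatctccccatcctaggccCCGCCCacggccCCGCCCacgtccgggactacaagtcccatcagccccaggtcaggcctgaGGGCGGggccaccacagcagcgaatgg
The Fasn window held 3 CCAAT boxes, a pair of them overlapping on opposite strands, and the Acly window held 4 GC boxes. A RefSeq promoter was matched for 8 of the 9 genes, all but Scd1, and these genes had 12 promoters. A CCAAT box stood in 6 of the 12, against 33.8% of all 32851 promoters, and a GC box in 5 of the 12, against 32.7%. Neither a sterol regulatory element (TCACNCCAC, in 1.05% of all promoters) nor an E-box (CACGTG, in 6.02%) was spelled out in any of the 12 windows, which says only that these letters are not there.

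Values are normalized log ratios, read here as log2 of strain over reference. The labels state neither the log base nor the direction. This reading is the likely one, since limma divides red by green and Alexa Fluor 647, the dye of the strain RNA, is read in red. Correlations do not depend on the direction. All arrays shared the same limits, -3.84 and 3.65, so a probe at a limit may lie beyond it. Strains 23, 28, 40 and 42 stood apart, with a median correlation of 0.24, 0.37, 0.06 and 0.33 with the other arrays, while the other 27 strains had at least 0.57. Probes whose identifier was a multiple of 8, of which Me1 was the sole member, centred at a panel mean of -0.58 (median), whereas probes at other places centred at 0.04. Main results on the members that change without these strains or places are given both ways.

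Under the likely direction of the ratio, the desaturase transcript had the lowest panel mean of the 11 probes, and under either direction it varied most. Scd1 was at -3.84 in strain 20, which is the lower limit of the array, at a median of -1.88 and at -0.18 in strain 24. It lay below 0 in 31 of 31 strains, and next to the extremes stood strain 33 at -3.49 and strain 29 at -0.44. The strains filled the range without a break, as the widest gap between neighbouring values was 0.36. The panel mean was -1.83 ± 0.17 (SE, n = 31), or 3.55-fold below the reference, and passed limma's test of the mean (adjusted p = 3.79e-12). Were the ratio to run the other way, Scd1 would stand 3.55-fold above the reference, and every higher or lower given here would turn. The SD between strains, 0.97, was higher than that of 99.8% of all probes, whose median SD was 0.24.

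Fatty acid synthase did not share this displacement. Fasn ranged over -0.67 in strain 31, a median of -0.01 and 1.33 in strain 20, with 15 strains above 0 and 16 below. Strain 20 thus held both the lowest Scd1 and the highest Fasn value. The panel mean of 0.10 ± 0.10 did not pass (limma, adjusted p = 0.325), while the SD of 0.56 was higher than that of 95.1% of all probes. Strain means close to the reference stood beside a range of 2.00 log2 units between the lowest and the highest strain.

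Upstream of Fasn, the citrate-cleaving enzyme Acly was at -0.98 in strain 33, a median of 0.00 and 0.69 in strain 21. Strains lay on both sides of the reference, 16 above and 15 below, and the mean of -0.02 ± 0.07 did not pass (adjusted p = 0.844, limma). Malic enzyme, Me1, was at -0.79 in strain 11, a median of -0.52 and 0.08 in strain 23, and was below 0 in 29 of 31 strains. Both strains above 0, 23 and 28, were among those that stood apart. Its mean of -0.48 ± 0.04 passed as lower (limma, adjusted p = 9.47e-13), but the probe sits at an every 8th place, and after subtraction of the median of its place on each array the mean was 0.09 (adjusted p = 0.0293, limma). The direction of Me1 against the reference is therefore not settled by these values.

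The 3 probes of acetyl-CoA carboxylase alpha did not share a level. Acaca 16198 was at -2.16 in strain 33, a median of -1.60 and 0.16 in strain 40, with 30 of 31 strains below 0. The highest values belonged to strains 40 and 23, with -0.26 in strain 23, and both are arrays that stood apart. The mean was -1.57 ± 0.09 (limma, adjusted p = 5.96e-18) and was -1.70 without the 4 strains, while the SD of 0.48 was 0.25 without them.
Acaca 4082 was at -0.50 in strain 8, a median of -0.23 and 0.39 in strain 9, and its mean of -0.19 ± 0.04 passed as lower (adjusted p = 0.000102, limma) with 25 of 31 strains below 0. Acaca 21684 was at -0.45 in strain 20, a median of -0.13 and 0.77 in strain 13, and its mean of -0.10 ± 0.05 did not pass (limma, adjusted p = 0.0601). It passed as lower at -0.14 without the 4 strains (limma, adjusted p = 0.00855) and at -0.12 after the place correction (adjusted p = 0.0236, limma). Across strains the probes of this gene had r = 0.042 for Acaca 4082 with Acaca 16198, 0.26 for Acaca 4082 with Acaca 21684 and 0.40 for Acaca 16198 with Acaca 21684, the last of which was 0.14 without the 4 strains. Each Acaca value is a value of that probe, and no single level can be given for the gene.

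Elongation and esterification differed from desaturation. Elovl6 was at -1.20 in strain 40, a median of 0.03 and 0.72 in strain 13, and its mean of 0.02 ± 0.06 did not pass (adjusted p = 0.717, limma). Strain 40, one of the 4 apart, lay far below the next strain, 22, at -0.40. Gpam was at -0.06 in strain 40, a median of 0.63 and 1.31 in strain 39, and was above 0 in 30 of 31 strains. Its mean of 0.63 ± 0.05, or 1.55-fold above the reference, passed as higher (limma, adjusted p = 1.45e-13), and it was 0.69 without the 4 strains.

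Both regulators stayed near the reference. Srebf1 was at -0.26 in strain 11, a median of 0.07 and 0.34 in strain 2, and its mean of 0.06 ± 0.03 did not pass (limma, adjusted p = 0.0923). After the place correction it was 0.08 and passed as higher (adjusted p = 0.0235, limma). Its SD of 0.17 was higher than that of only 12.3% of all probes. Thrsp was at -0.39 in strain 16, a median of -0.02 and 0.68 in strain 28, a strain that stood apart, and its mean of 0.00 ± 0.04 did not pass (limma, adjusted p = 0.974).

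**Figure D1:**
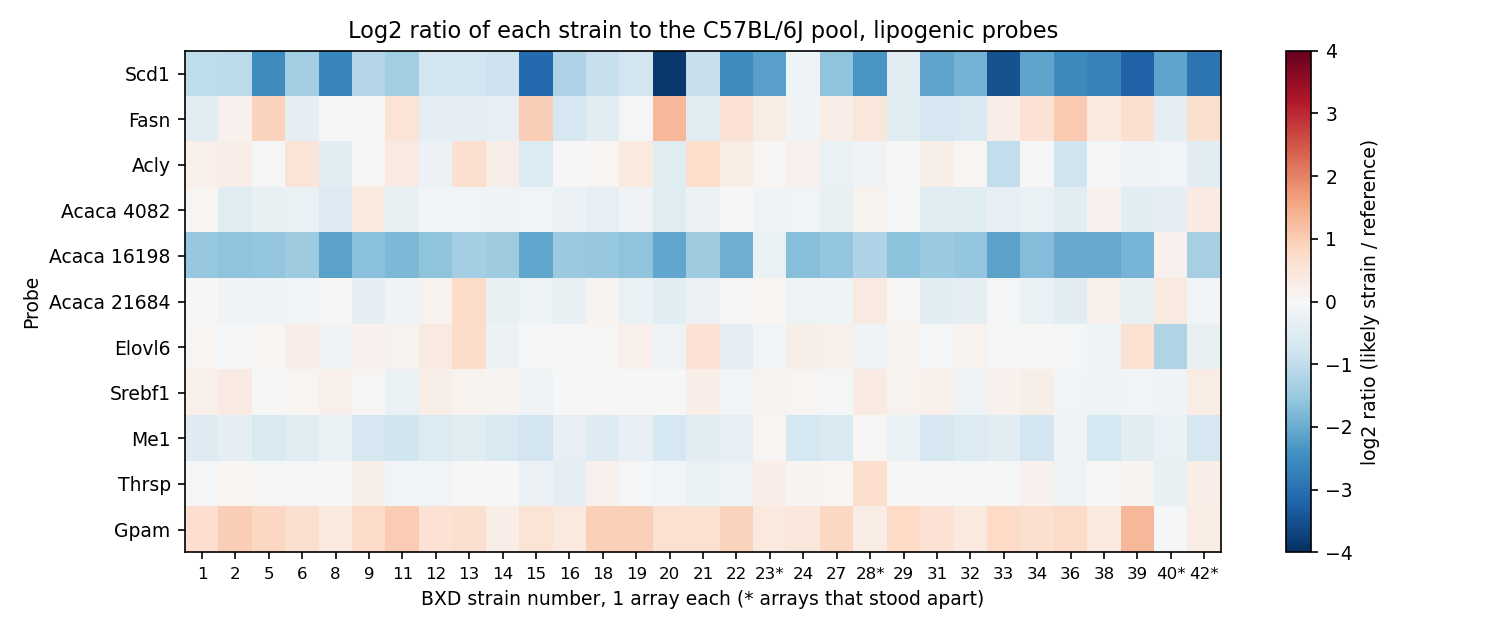
Log2 ratio of each of the 31 BxD strains (columns) to the C57BL/6J pool for the 11 lipogenic probes (rows), with blue below and red above 0 and asterisks on strains 23, 28, 40 and 42. Scd1 and Acaca 16198 are blue nearly throughout, Gpam is red in 30 of 31 strains, and Fasn is reddest in strain 20, where Scd1 is bluest.

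Of the 11 probes, 1 passed as higher (Gpam) and 4 as lower (Scd1, Acaca 4082, Acaca 16198 and Me1), and 6 did not pass. Over all probes 75.0% passed, 37.4% as higher and 37.6% as lower, so the share of lipogenic probes that passed was no larger than that of probes at large. After the place correction 3 passed as higher and 4 as lower, where 37.0% and 36.9% of all probes did, and without the 4 strains 1 passed as higher and 5 as lower, where 39.9% and 38.2% did. What set Scd1 and Acaca 16198 apart was size, as the plot of strain values and means shows. Ordered by SD over strains, Scd1 (0.97) came before Fasn (0.56), Acaca 16198 (0.48), Acly (0.39), Elovl6 (0.34), Gpam (0.28), Acaca 21684 (0.27), Acaca 4082 (0.23), Me1 (0.22), Thrsp (0.20) and Srebf1 (0.17). Without the 4 strains Acaca 16198 stood at 0.25, Elovl6 at 0.26 and Thrsp at 0.14, while Scd1 stood at 1.01, Fasn at 0.58 and Acly at 0.41. Scd1, Fasn and Acly thus varied as much in the other 27 strains.

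**Figure D2:**
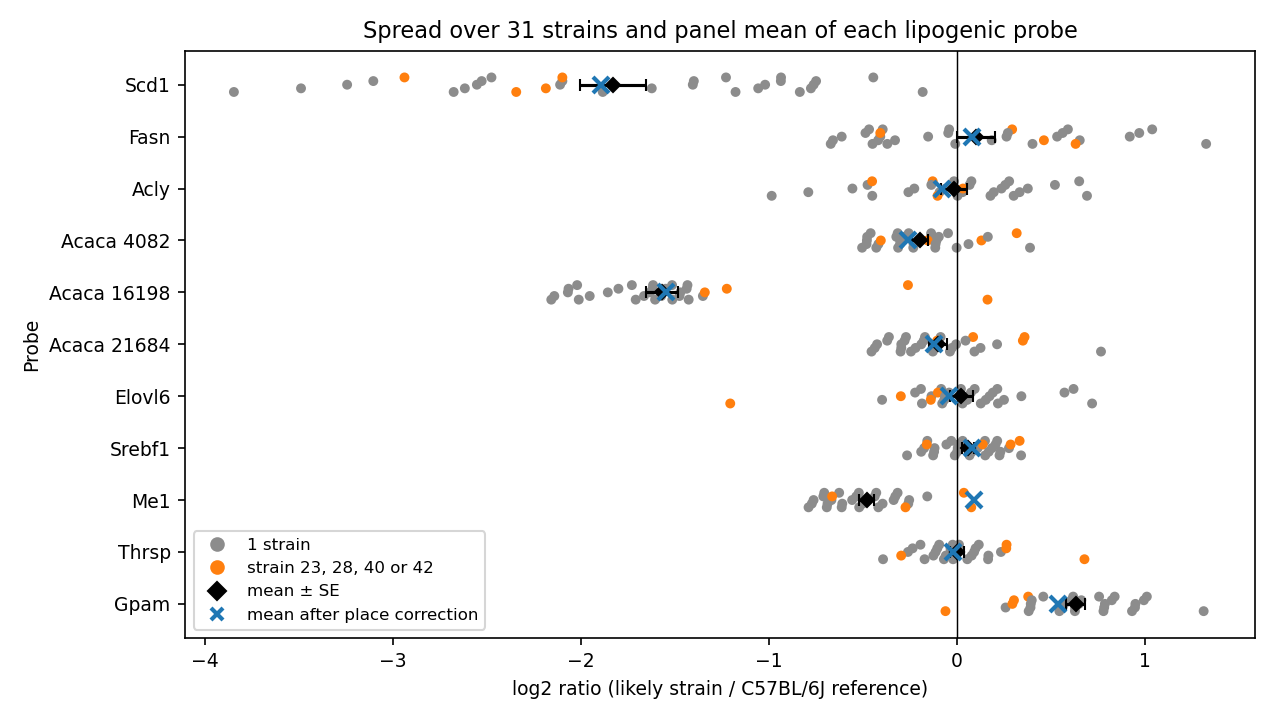
Log2 ratio (x axis) of the 11 probes (rows), with 1 point for each of 31 strains, strains 23, 28, 40 and 42 in orange, black diamonds for the mean ± SE and blue crosses for the mean after the place correction. The cross of Me1 lies at 0.09, above 0, while its diamond lies at -0.48, and orange points hold the high end of Acaca 16198, Thrsp and Me1 and the low end of Elovl6 and Gpam.

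Correlations between the genes were computed for 55 pairs of probes, 52 of them between different genes. The adjusted p of a pair comes from a limma fit of every probe on the first probe of the pair, over 21764 probes. The probes of Scd1 and Fasn varied in opposite senses over 31 strains. Pearson r was -0.71 (permutation p = 2e-05) and Spearman rho was -0.69 (permutation p = 3e-05). Scd1, Fasn and Acly each had 1 probe, so no second probe of the gene could be set beside it. Probe sequences were not available, and each r is that of the probes. Without strains 24 and 20, the farthest from the median of Scd1, r was -0.68, and it lay between -0.75 and -0.66 when any single strain was left out. The adjusted p was 0.000944 by limma, and it was 0.000717 without the 4 strains that stood apart, where r was -0.72. Values of individual strains show the pattern. In strains 20, 33, 39 and 15, the 4 with the lowest Scd1, Fasn stood at 1.33, 0.27, 0.65 and 0.97. In strains 24, 29, 12 and 13, which had the highest Scd1, Fasn stood at -0.15, -0.48, -0.39 and -0.37.

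Scd1 and Acly varied in the same sense, with r = 0.68 (permutation p = 3e-05) and rho = 0.66 (permutation p = 0.00012). Without strains 24 and 20 r was 0.67, and with any single strain left out it lay between 0.63 and 0.72. The adjusted p was 0.00269 in the limma fit on Scd1 and 0.0316 in that on Acly. In strains 20, 33, 39 and 15, with the lowest Scd1, Acly stood at -0.47, -0.98, -0.13 and -0.55. In strains 24, 29, 12 and 13, with the highest Scd1, Acly stood at 0.18, -0.01, -0.23 and 0.65. Fasn and Acly, which act in sequence, had r = -0.53 (permutation p = 0.0025) and rho = -0.50 (permutation p = 0.0044). Of the 3 pairs this one had the smallest absolute r. Its adjusted p was 0.0489 in the limma fit on Fasn and 0.11 in that on Acly, and r was -0.41 without strains 36 and 20 (permutation p = 0.027).

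**Figure D3:**
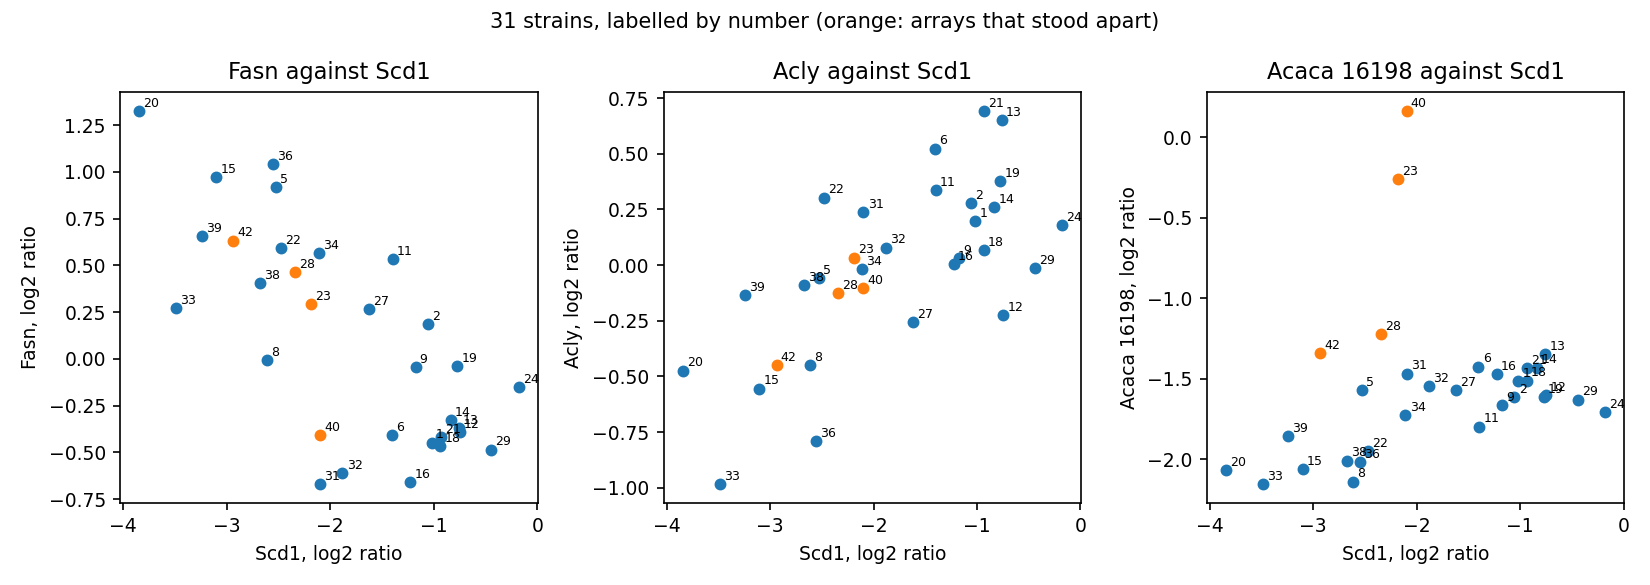
Log2 ratio of Fasn, Acly and Acaca 16198 (y axes) against that of Scd1 (x axes), 1 point for each of 31 strains, labelled by strain number, with strains 23, 28, 40 and 42 in orange. Fasn is high where Scd1 is low, Acly runs with Scd1, and in Acaca 16198 strains 40 and 23 lie far above the other points.

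Acaca 16198 joined these 3 genes once the strains that stood apart were left out. Over 31 strains its r was 0.23 with Scd1 (limma, adjusted p = 0.386), -0.36 with Fasn (adjusted p = 0.214, limma) and 0.29 with Acly (limma, adjusted p = 0.37). Over 27 strains r was 0.75 with Scd1 (limma, adjusted p = 0.000706), -0.71 with Fasn (adjusted p = 0.00274, limma) and 0.75 with Acly (limma, adjusted p = 0.0173). Acaca 4082 and Acaca 21684 had r = 0.17 and 0.15 with Scd1 over 31 strains. Over 27 strains they had 0.34 and 0.25, and neither passed (limma, adjusted p = 0.21 and 0.364).

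Pairs with Gpam passed with all strains and not without those that stood apart. Elovl6 and Gpam had r = 0.54 (permutation p = 0.0019, rho = 0.46 with permutation p = 0.0095, adjusted p = 0.0102 by limma) over 31 strains, 0.36 without strain 40 and 0.42 without strains 13 and 40. Over the 27 strains r was 0.26 (limma, adjusted p = 0.486). Acaca 16198 and Gpam had r = -0.51 (permutation p = 0.0037, rho = -0.42 with permutation p = 0.021, adjusted p = 0.0216 by limma), -0.31 without strain 40 and -0.24 without strains 23 and 40. Over the 27 strains r was -0.09 (limma, adjusted p = 0.785). Both pairs thus rest on the strains that stood apart.

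The regulators followed the enzymes little. Srebf1 had r = 0.21 with Scd1, -0.23 with Fasn, 0.10 with Acly and 0.15 with Elovl6, none of which passed (limma, lowest of these adjusted p = 0.474). Srebf1 and Thrsp had r = 0.42 (permutation p = 0.016, adjusted p = 0.586 by limma), which was 0.16 over the 27 strains. Scd1 and Elovl6, consecutive steps, had r = 0.35 (permutation p = 0.05) and rho = 0.51 (permutation p = 0.0033), and did not pass over all probes (limma, adjusted p = 0.16). Thrsp and Gpam had r of -0.05 and 0.04 with Scd1.

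Shares of members that passed are set here against those of all probes. In the fit on Scd1, 2 of the 10 other lipogenic probes passed, where 11.4% of all probes did. In the fit on Fasn, 2 of 10 passed, both as negative, where 3.12% of all probes did and 1.09% as negative. In the fit on Acly, 1 of 10 passed (Scd1), where 0.0597% of all probes did. On Elovl6 and Acaca 16198, 1 of 10 passed each, below the 25.9% and 17.7% of all probes. On Gpam 2 of 10 passed, where 8.08% did. After the place correction none of the 10 passed on Acly or on Gpam. With the first principal component of all probes as a covariate, none passed on Acly, Elovl6 or Gpam. No lipogenic probe passed in the fits on Acaca 4082, Acaca 21684, Srebf1, Me1 and Thrsp, where 0%, 0.0551%, 0%, 0% and 0.795% of all probes did. Without the 4 strains, 3 of 10 passed on Scd1 (15.6% of all probes), 3 on Fasn (10.3%), 3 on Acaca 16198 (17.6%), 2 on Acly (0.799%) and none on Elovl6 (0.409%) or Gpam (0%).

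In all, 5 of the 52 pairs of different genes passed with 31 strains and 6 with 27, and 3 pairs, those among Scd1, Fasn and Acly, passed in both. A permutation p for r, not adjusted for the number of pairs, was below 0.05 in 10 of the 52. The share over all probe pairs was not computed. Among the 10, Acaca 16198 had r = -0.38 with Elovl6 and 0.40 with Me1, but 0.47 and -0.06 over the 27 strains. The median r of the 52 pairs was 0.092, against -0.0005 for all pairs of probes on the array, and 32 of the 52 were positive. An absolute r of 0.5 or more was found in 9.62% of the 52 pairs and in 6.65% of all pairs, and over 27 strains in 11.5% and 3.14%. Pairs of opposite sign thus stood side by side among the 9 genes.

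**Figure D4:**
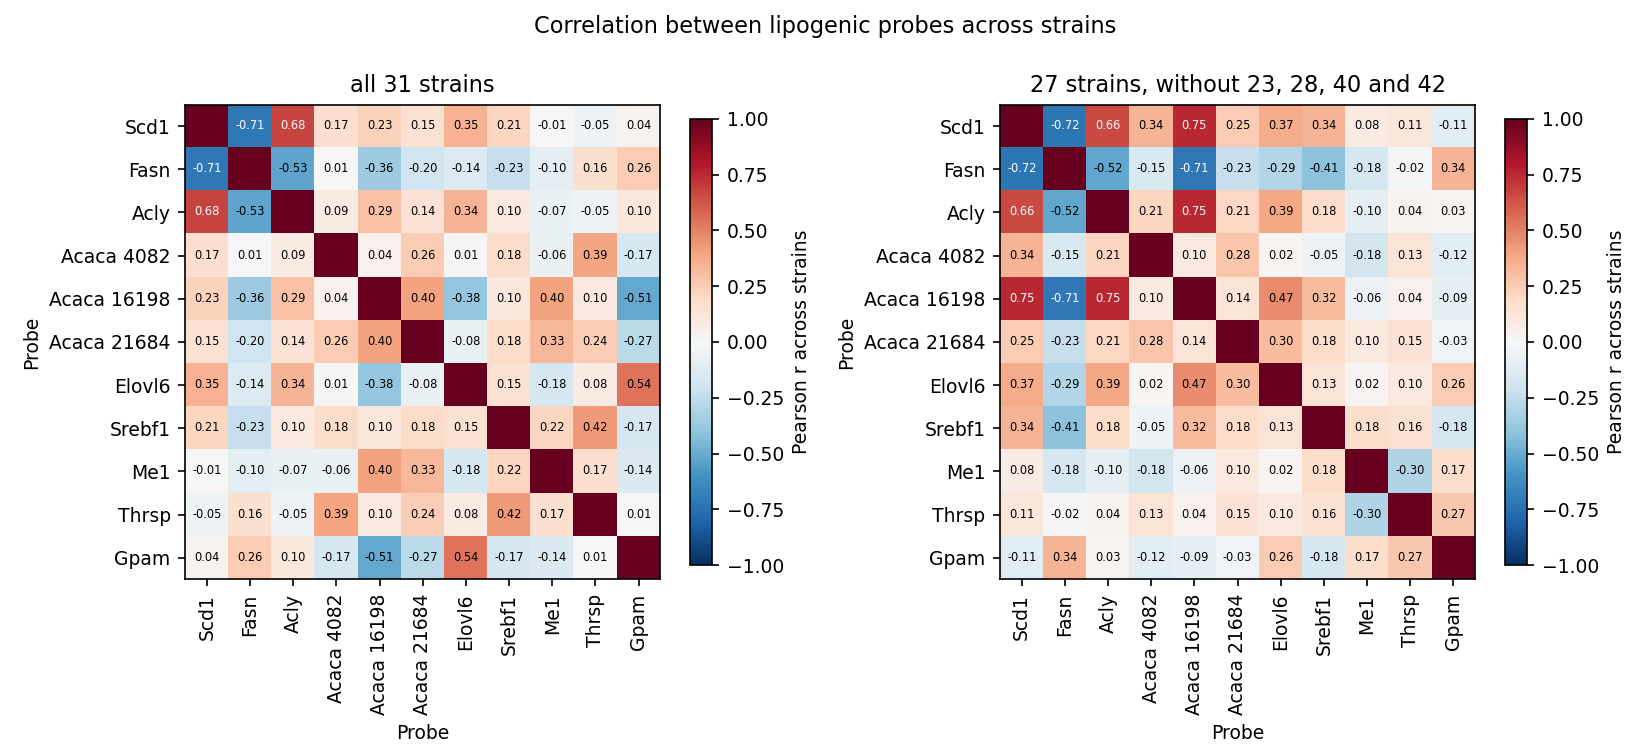
Pearson r across strains between the 11 lipogenic probes, over 31 strains (left) and over the 27 strains without 23, 28, 40 and 42 (right), red for positive and blue for negative. Scd1, Fasn and Acly keep their values in both panels, Acaca 16198 with Scd1 is 0.23 on the left and 0.75 on the right, and Elovl6 with Gpam is 0.54 on the left and 0.26 on the right.

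Probes with patterns most like those of the members were found by Pearson r over the 31 strains. They were picked as the highest and lowest of all named probes, so their r is a description. Highest with Scd1 were Serp2 (0.82), Stmn2 (0.78), Abhd18 (0.75), Bpifa1, Cd164, Rab10, Rsph3a and Prpf38b, down to 0.72, and lowest were Alcam (-0.84), Mt3 (-0.79), Traf5 (-0.79) and Ms4a6c (-0.78). Highest with Fasn were Cyp4a10, Plcb3 and Plcb4 (0.85 each), Gpld1 (0.82), Pkib, Rpl38, Chordc1 and Rpl5, down to 0.81, and lowest were Abhd18 (-0.81), Mrpl20 (-0.76), Sdcbp (-0.72) and Ppifos (-0.72). Abhd18 was on both sides, high with Scd1 and low with Fasn. Alcam, Traf5 and Rpl38 are every 8th probes. Etfa (0.72), a subunit of the electron transfer flavoprotein of mitochondrial fatty acid oxidation, Fate1 (0.71) and Prpf38b (0.67) were highest with Acly.

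The best matches of the other members had r from 0.91 down to 0.60. These r values are over 31 strains. They were Herc6, Vmn1r44 and Tnfsf12 for Acaca 16198, Polr1a, Zbtb22 and Klf4 for Acaca 4082, and Sim2, Ociad2 and Depdc2 for Acaca 21684. For Elovl6 they were Tcrb-V8.2, Anp32e and Slc4a8, for Srebf1 Rhpn2, Adam22 and Mrpl54, for Me1 Ccl12, Hoxd11 and Tmem144, for Thrsp Nr4a1, Mettl9 and Pcbd2, and for Gpam Apeh, Kif20a and Serpinc1. Herc6, Vmn1r44 and Tnfsf12 are all every 8th probes, and their r with Acaca 16198 was 0.59, 0.47 and 0.41 without the 4 strains. Tmem144, like Me1 itself, is also an every 8th probe. Over the 27 strains r with Thrsp was 0.61 for Nr4a1, 0.38 for Mettl9 and 0.16 for Pcbd2, and r with Me1 was 0.56, 0.55 and 0.37 for Ccl12, Hoxd11 and Tmem144. Apeh, Kif20a and Serpinc1 then had 0.71, 0.67 and 0.66 with Gpam, Tcrb-V8.2, Anp32e and Slc4a8 had 0.74, 0.67 and 0.63 with Elovl6, and Polr1a, Zbtb22 and Klf4 had 0.53, 0.47 and 0.51 with Acaca 4082. The matches of Scd1, Fasn, Acly, Acaca 21684 and Srebf1 moved by less than 0.1. The name Tcrb-V8.2 stands on 151 probes of the array.

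Cyp4a10, an enzyme of fatty acid omega-hydroxylation and a classic target of PPAR alpha, was at -1.69 in strain 31, a median of 0.46 and 1.84 in strain 20. Its extremes fell in the same strains as those of Fasn, 31 and 20. With Fasn, r was 0.85 (rho = 0.85), and 0.83 without strains 36 and 20. Cyp4a10 was picked as the highest of all named probes with Fasn, so no p is given for that r. With Scd1, r was -0.63, and no p is given there either, as Scd1 and Fasn were themselves negatively related. The related Cyp4a14, looked up after its values were seen, had r = 0.73 with Fasn and -0.70 with Scd1, and the metal-binding protein Mt1, looked up likewise, had 0.55 and -0.60. Mt1 was at the upper limit of the array in 6 of 31 strains, so its r is that of a capped probe. Relations of this kind with 8 genes outside the members were computed for Scd1 and for Fasn, 16 in all. All 8 genes, among them Elovl2, Dgat2, Nr1h3, Car3 and Cps1 below, were looked up after their values were seen. No permutation p is therefore given for them.

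Among other genes of fatty acid synthesis and desaturation, 13 of 15 listed genes were measured by 14 probes. Against the reference 5 of the 14 passed as higher (37.4% of all probes did) and 5 as lower (37.6% did), with a median mean of 0.03, against 0.00 for all probes. Higher were Fads2, a desaturase of polyunsaturated fatty acids (0.47 ± 0.06), and the citrate carrier Slc25a1 (0.44 ± 0.05), and lower were Mid1ip1, a relative of Thrsp (-0.50 ± 0.06), and 1 probe of Acacb, the mitochondrial carboxylase (-0.39 ± 0.06). With Scd1, 1 of the 14 passed, where 11.4% of all probes did. It was the elongase of polyunsaturated fatty acids Elovl2, at r = -0.77 (adjusted p = 0.000189 by limma). With Fasn none of the 14 passed over 31 strains, where 3.12% did, and 1 over 27, where 10.3% did, the desaturase Scd2 at r = 0.55 (limma, adjusted p = 0.0494, named after its value was seen). Elovl2 had r = 0.47 with Fasn (limma, adjusted p = 0.0886), and its panel mean was -0.14, or 0.44 after the place correction, as it is an every 8th probe. With that correction its r was -0.64 with Scd1 (limma, adjusted p = 0.00482) and 0.41 with Fasn (limma, adjusted p = 0.148). Mean values of this list by strain had r = -0.63 with Scd1 and 0.44 with Fasn, a description. The median r of the single probes was smaller, -0.18 with Scd1 and 0.18 with Fasn.

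Triglyceride assembly and storage was measured by 14 probes for 13 of 14 listed genes, with 6 higher and 6 lower against the reference (37.4% and 37.6% of all probes), and 7 higher and 4 lower after the place correction (37.0% and 36.9%). Dgat2, which adds the last acyl chain of triglyceride, was negative with Scd1 at r = -0.70 (limma adjusted p = 0.00127). With Fasn it was positive at 0.61 (limma adjusted p = 0.0123). It is an every 8th probe. After the place correction r was -0.60 with Scd1 (limma, adjusted p = 0.00814) and 0.56 with Fasn (limma, adjusted p = 0.0256). Mttp, which loads lipid onto apolipoprotein B, had r = -0.46 with Scd1 (limma, adjusted p = 0.0494) and 0.63 with Fasn (limma, adjusted p = 0.00974). The acyl-CoA synthetase Acsl5 was the single positive call with Scd1 at r = 0.48 (limma, adjusted p = 0.0452). In all, 3 of the 14 passed with Scd1 and 2 with Fasn (11.4% and 3.12% of all probes), and without the 4 strains 4 and 2 (15.6% and 10.3%), Apob being the addition at r = 0.50 with Scd1 (limma, adjusted p = 0.0317). On panel mean Mttp stood at 0.76 ± 0.10, the lipid droplet protein Plin2 at 0.54 ± 0.09, Apob at -0.58 ± 0.09 and the every 8th probe of Lpin1 at -0.91 ± 0.09, or -0.34 after the place correction.

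Of the regulators of lipogenesis, 16 of 21 listed genes were measured by 17 probes, and 6 passed as higher and 7 as lower, shares close to the 37.4% and 37.6% of all probes. Nr1h3, the liver X receptor alpha that raises Srebf1 transcription, was negative with Scd1 at r = -0.61 (limma adjusted p = 0.00719). With Fasn it was positive at 0.54 (limma adjusted p = 0.04). Insig2, which retains the SREBP complex in the endoplasmic reticulum, was positive with Scd1 at r = 0.47 (limma, adjusted p = 0.0457) and at 0.77 over the 27 strains (limma, adjusted p = 0.000192). The insulin receptor Insr was at -0.50 ± 0.05, its substrate Irs2 at 0.35 ± 0.03, the SREBP protease Mbtps1 at 0.34 ± 0.04 and 1 probe of Srebf2 at 0.26 ± 0.04 on panel mean, while the other Srebf2 probe stood at -0.15 ± 0.04.

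NADPH and glucose supply was measured by 8 probes for 8 of 10 listed genes, with 2 higher and 3 lower (37.4% and 37.6% of all probes). Taldo1, of the pentose phosphate pathway, was at 0.97 ± 0.07, and the glucose transporter Slc2a2, at 0.38 ± 0.05, was the single call with Fasn over 31 strains, at r = 0.56 (limma, adjusted p = 0.039). Over 27 strains 3 of the 8 passed with Fasn, where 10.3% of all probes did: Slc2a2 at r = 0.53, the NADPH-forming Idh1 at -0.65 (limma, adjusted p = 0.00695) and the pyruvate kinase Pklr at -0.53 (limma, adjusted p = 0.0354, named after its value was seen). None of the 8 passed with Scd1 over 31 or 27 strains. Cholesterol synthesis and uptake, 14 probes for 14 of 20 listed genes, had 8 higher and none lower against the reference, Sqle at 0.78 ± 0.08 among them, but 6 higher and 3 lower after the place correction. Of all probes 37.4% were higher and 37.6% lower, and 37.0% and 36.9% after the correction, so that the corrected count of higher probes is close to that share. None of these 14 passed with Scd1 or Fasn, the highest r with Scd1 being that of Cyp51 at 0.45 (limma, adjusted p = 0.0611).

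**Figure D5:**
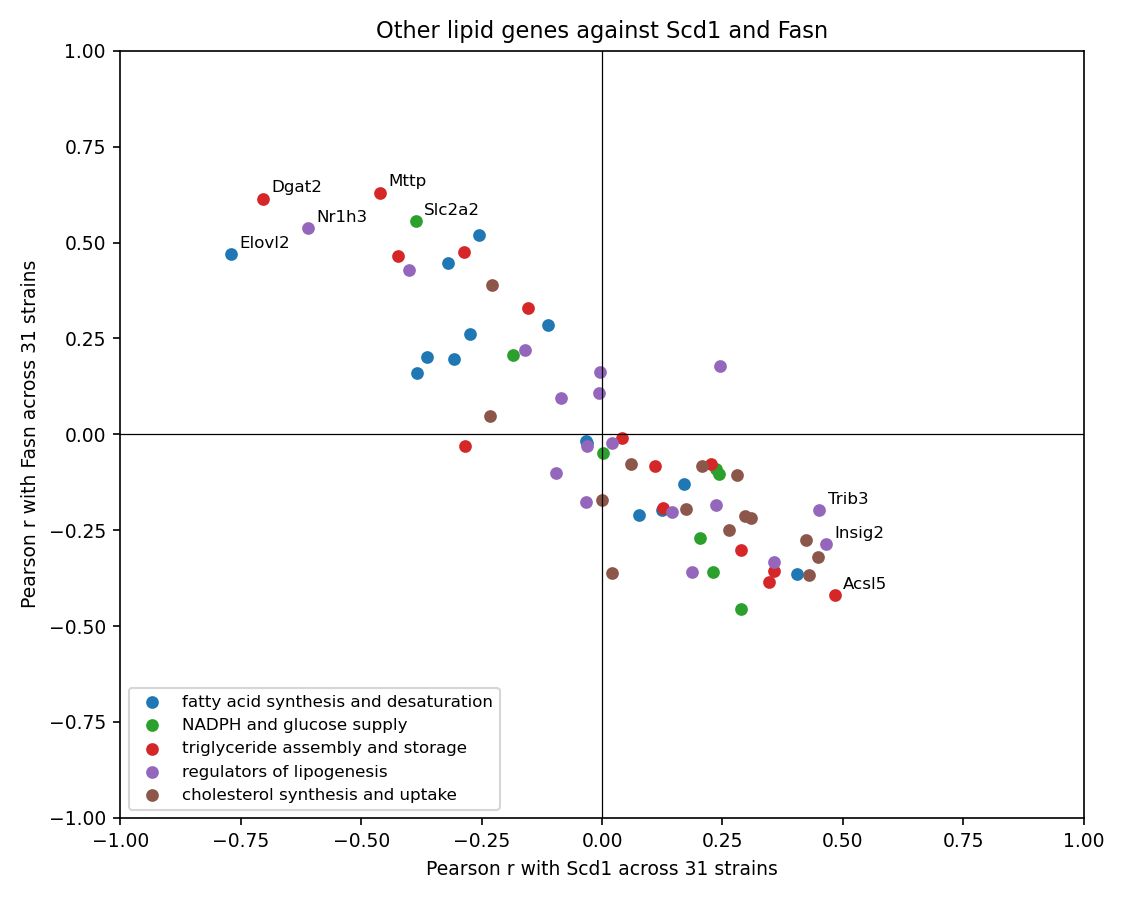
Pearson r over 31 strains with Scd1 (x axis) and with Fasn (y axis) for probes of 5 lists of lipid genes, coloured by list, with names on those far from 0. Points run from the upper left, with Elovl2 and Dgat2, to the lower right, with Acsl5, along the line that the r of -0.71 between Scd1 and Fasn themselves sets up.

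Because Scd1 and Fasn were themselves negatively related, a gene that runs with one tends to run against the other, and the values with Scd1 and with Fasn are not separate evidence.

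Markers of cell types were set beside these values. Means of 15 hepatocyte probes (11 of 12 genes) lay between -0.63 in strain 23 and 0.36 in strain 24, and had r = 0.42 with Scd1 and -0.15 with Fasn. Means of 11 exocrine pancreas probes (11 of 12 genes) lay between -0.39 in strain 38 and 0.43 in strain 24, the strain with the highest Scd1, and had r = 0.50 with Scd1 and -0.31 with Fasn. Cpa1 (r = 0.58, adjusted p = 0.0137 by limma) and Prss2 (r = 0.53, adjusted p = 0.0221 by limma) passed with Scd1. Means of 11 adipocyte probes (11 of 14 genes) lay between -0.48 in strain 39 and 0.09 in strain 28, with r = 0.36 and -0.28. The median r of the single adipocyte probes was -0.02 with Scd1 and -0.05 with Fasn. Car3, also made in hepatocytes, was the single adipocyte marker that passed with Scd1 over 31 strains, at r = 0.71 (limma adjusted p = 0.000863). Kupffer cell means, 10 probes for 9 of 11 genes, had r of 0.03 with Scd1 and 0.12 with Fasn, and 1 of the Lyz2 probes passed with Scd1 at -0.48 (limma, adjusted p = 0.0435). The hepatocyte enzyme of the urea cycle Cps1 had r = 0.57 with Scd1 (limma adjusted p = 0.0118). With Scd1 over 31 strains, 1 adipocyte, 1 hepatocyte, 1 Kupffer cell and 2 pancreas probes passed, where 11.4% of all probes did. None of these markers passed with Fasn, where 3.12% of all probes did. Without the 4 strains 2 of the 11 adipocyte, 1 of the 15 hepatocyte, 1 of the 10 Kupffer cell and 2 of the 11 pancreas probes passed with Scd1 (15.6% of all probes), and 3, 1, 0 and 2 of them with Fasn (10.3%). These are ratios between livers, so they do not show how much of a cell type was present, and the part of cell makeup in the results was not tested.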

How the data were processed

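Each of 31 BxD strains had 1 array with 2 colours and 23040 features, of which 1275 were empty throughout. The values, taken as log2, are the normalized ratios the authors deposited. The submitters' processing notes name limma and R 2.0.0. How background was corrected and arrays were normalized, which log base was used and which way the ratio runs is not given in the sources used. Dyes were not exchanged. Precision is limited by the number of arrays, and signal over background is unknown, as intensities were not used. Probes were named from the platform annotation (16642 with 1 gene, 134 with several, 4989 with none), with 15964 updated by gene ID through RefSeq.

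Members, gene lists and tests were chosen with earlier results of these data known. Panel means were tested against 0 (intercept) and slopes on each member probe were fitted with limma 3.58.1 in R 4.3.3 (lmFit and eBayes, two-sided, Benjamini-Hochberg over all probes, threshold 0.05), after a check on simulated data. Pairs were tested with 100000 two-sided permutations, and 1e-05 is the smallest p these can give. Alternatives were a place correction (the median of probes with the same remainder on division by 8 was subtracted on each array), strains 23, 28, 40 and 42 left out, array weights, robust moderation, a mean beyond 0.2, Bonferroni adjustment, and the first principal component of all probes as a covariate. Named genes were all members, the 8 genes with the highest and 4 with the lowest r with Scd1 and with Fasn, the 3 with the highest r with each other member, and, of each list, up to 4 by absolute mean and 4 by absolute r with Scd1. Genes named outside this rule are said to be so.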

Additional observations from a re-analysis of the deposited data

How the results depend on the processing

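One probe, Me1, passed in opposite directions: its mean was 0.0949 after the place correction and 0.12 when strains 23, 28, 40 and 42 were also left out, against -0.48, because the correction raises every 8th probe. The number of lipogenic probes higher than the reference, 1 as reported, was 3 after the place correction and 2 with both changes. Probes varying with Scd1, 2486 as reported, numbered 1082 with the first principal component as a covariate. Probes varying with Fasn, 679 as reported, numbered 2239 without the 4 strains, 2224 with the place correction as well and 1122 with the first principal component. The cause was not tested. With the first principal component as a covariate, Fasn and Acly no longer passed (r = -0.48, limma adjusted p = 0.0668), while Acaca 16198 passed with Scd1 (r = 0.68) and with Fasn (r = -0.65). Acaca 4082 no longer passed against a mean beyond 0.2 or with Bonferroni adjustment. Of the values on single probes and pairs with an adjusted p under an alternative, 109 kept their direction and their side of the threshold, 13 newly passed, 9 no longer passed, 24 changed sign without passing under either setting, and 2 are those of Me1. The panel means among the 24 are those of 3 probes, Acly, Elovl6 and Thrsp. Among rank correlations and values with strains left out, which have no adjusted p, 75 kept their sign and 5 did not. The r of Scd1 with Fasn lay between -0.75 and -0.66 and that of Scd1 with Acly between 0.63 and 0.72 when 1 strain was left out. No paired analysis was possible because the strains form a single group. Signal over background was not available, so dim probes could not be told from bright ones.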
